A study of Mus musculus with 12 samples.

Results

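The genes described here are 42 mouse genes that cells use to enter and complete mitosis: the kinase Cdk1 with its cyclins and CDC25 phosphatases, the Aurora, Polo and NEK kinases, the spindle checkpoint, kinetochore and chromosomal passenger genes, mitotic kinesins, condensin, and the anaphase genes. They were chosen by name, and each was read from the probe set annotated to it alone that had the highest mean deposited intensity over the 12 arrays. That gave 40 of the 42, and all 40 were among the 11217 genes tested, of 17097 genes with such a probe set. Ccnb1 and Nuf2 were not analysed here. The 12 arrays hold total RNA of 3 murine acute myeloid leukaemia lines, with 4 arrays each. TB13 and TB14 are labelled as expressing both Trib1 and Bcl11a, and the Trib1 line as expressing Trib1 with no mention of Bcl11a, so the introduced Trib1 is shared by all 3. Every line was grown untreated in the same serum-containing medium with IL-3. Trib1 encodes a pseudokinase that causes myeloid leukaemia in mice, and Bcl11a encodes a zinc finger transcriptional repressor. Each is a single line: the vector, any clonal origin and whether the 4 arrays came from separate cultures are unstated in the labels used here. The p-values therefore set the differences between lines only against the spread between arrays of a line, and that spread may be technical. They speak for these 3 lines and not for Bcl11a in general.

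Entry into mitosis is driven by CDK1 bound to cyclin A or cyclin B. The Aurora and Polo kinases then mature the centrosomes and build the spindle, condensin packs the chromosomes, and the spindle checkpoint holds back the anaphase promoting complex until every kinetochore is attached. Many of these genes are transcribed together late in the cell cycle, through promoter elements bound by the DREAM complex, B-MYB and FOXM1, so they are widely read as markers of dividing cells in leukaemia.

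Promoter sequences are shown because the members are known for shared promoter elements and because these 4 behaved differently here. Cdk1 and Ncapd2 rose in TB14, Ccnb2 fell in TB13, and Kif23 fell in TB14 and lay below the array median in TB13. Each window is from RefSeq on build GRCm38.p6 and runs 5′ to 3′ from 250 bases before to 50 bases after the annotated start. Capitals mark TTTGAA (a core of the cell cycle genes homology region), CCAAT or its reverse complement ATTGG (the NF-Y box), and the E2F sites TTTCGCGC and TTTGGCGC.
Cdk1 promoter, chr10:69352863-69353162, minus strand: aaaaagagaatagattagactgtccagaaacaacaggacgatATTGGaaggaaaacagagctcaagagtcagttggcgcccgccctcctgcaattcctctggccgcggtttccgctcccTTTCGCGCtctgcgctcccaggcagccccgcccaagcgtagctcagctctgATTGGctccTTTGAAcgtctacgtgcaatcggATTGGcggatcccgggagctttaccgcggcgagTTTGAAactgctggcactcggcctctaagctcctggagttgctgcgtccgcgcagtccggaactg
Ncapd2 promoter, chr6:125191537-125191836, minus strand: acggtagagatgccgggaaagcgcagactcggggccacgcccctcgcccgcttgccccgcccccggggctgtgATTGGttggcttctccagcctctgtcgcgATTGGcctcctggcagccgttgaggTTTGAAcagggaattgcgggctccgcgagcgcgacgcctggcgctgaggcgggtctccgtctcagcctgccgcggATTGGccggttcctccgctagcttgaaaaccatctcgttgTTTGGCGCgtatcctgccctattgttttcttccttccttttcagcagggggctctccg
Ccnb2 promoter, chr9:70421505-70421804, minus strand: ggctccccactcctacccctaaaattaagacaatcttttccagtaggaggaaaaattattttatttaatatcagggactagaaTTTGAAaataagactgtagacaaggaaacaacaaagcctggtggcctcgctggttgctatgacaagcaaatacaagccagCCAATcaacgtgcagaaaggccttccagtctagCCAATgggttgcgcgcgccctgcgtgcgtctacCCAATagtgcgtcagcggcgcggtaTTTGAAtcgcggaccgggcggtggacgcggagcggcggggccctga
Kif23 promoter, chr9:61946750-61947049, minus strand: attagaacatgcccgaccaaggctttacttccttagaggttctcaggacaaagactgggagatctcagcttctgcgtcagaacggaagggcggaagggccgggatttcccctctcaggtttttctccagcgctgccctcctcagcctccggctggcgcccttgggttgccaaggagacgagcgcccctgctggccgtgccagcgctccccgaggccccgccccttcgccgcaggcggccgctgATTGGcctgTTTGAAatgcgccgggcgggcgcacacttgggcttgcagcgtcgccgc

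RefSeq promoters were found for 34 of the 42 genes, 36 windows of 300 bases in all. TTTGAA or TTCGAA on either strand was present in 27 of them (75%), against 19.2% of all 32851 promoters of the same length. TTCGAA is its own reverse complement, a window with both was counted once, and matches to different motifs may share bases. A box reading CCAAT on either strand was present in 77.8% of the member windows and 37.4% of all windows, and both elements together in 69.4% and 7.52%. An E2F site spelled TTTGGCGC, TTTCCCGC or TTTCGCGC was present in 5.56% of the member windows, those of Cdk1 and Ncapd2, and in 1.84% of all windows. Among the 16 windows of genes that were higher in TB14 under every scaling used here, 11 held TTTGAA or TTCGAA, as did 15 of the 17 windows of genes with no such call, and the Kif23 window. The element was therefore found in windows of both kinds, and these matches describe letters only.

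Levels are given as quantile-scaled intensities, the deposited array intensities brought to 1 common distribution, in arbitrary units. Changes are limma differences of log2(scaled intensity + 12.7), fitted over all 12 arrays and given with their SE, which understate the change of dim genes. Calls needed a p under 0.05 after Benjamini-Hochberg adjustment over all 11217 genes. Before scaling, the TB13 arrays were unlike the rest: their upper quartile of deposited intensity was 71.8 to 72.5 units in TB13, against 106 to 109 in TB14 and 102 to 105 in Trib1, and their 18 hybridization controls had a median log2 of -1.11 relative to Trib1. In TB14 the same controls differed from Trib1 by 0.0012. A control for nonspecific binding read 461 to 622 units in TB13 and 189 to 205 in TB14, against 187 to 200.1 in Trib1. The 3′ to 5′ signal ratio of Actb, a measure of RNA integrity, was 1.112 to 1.117 in TB13 and 1.008 to 1.031 in TB14, against 1.038 to 1.057 in Trib1, with no overlap between lines. The 4 Bcl11a probe sets lay at 7.5 to 15.2 units in TB13, 6.74 to 16.9 in TB14 and 7.73 to 22.8 in Trib1, at or below the array median of 22.7 on nearly all arrays, so they did not show the labelled gene. The brighter Trib1 probe set read 27.2 to 38.2 units in TB13, 27.7 to 30.6 in TB14 and 25.01 to 29.2 in Trib1. All 10 leukocyte and myeloid markers were above the array median on at least 4 arrays, and they summed to 7413 to 7760 units in TB13 and 9067 to 9149 in TB14, against 8082 to 8129 in Trib1. Singly, 4 were called higher and 6 lower in TB13, where 42% and 38.3% of all genes tested were. In TB14 it was 3 and 5, against 23% and 20.8%, so the sums do not show a shared direction. Summed T cell markers ranged from 302 to 379 units in TB13 and 156 to 161 in TB14, against 217 to 226 in Trib1, and 5 of the 6 were above the array median on at least 4 arrays. Of these 5, 2 were called higher and 2 lower in TB13, and 0 and 2 in TB14, against the same shares of all genes. Erythroid markers summed to 1837 to 1986 units in TB13 and 1429 to 1459 in TB14, against 825 to 876 in Trib1, and 2 of the 3 measured were above the median on at least 4 arrays. B cell markers summed to 114 to 134 units in TB13 and 93.1 to 99.5 in TB14, against 94.9 to 98.8 in Trib1, and 3 of the 4 measured were above it on as many. The part of these control and marker differences in the results below was not tested.

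The mitosis genes were slightly and broadly higher in TB14 than in the Trib1 line. Of the 40, 25 rose, 3 fell and 12 did not pass the test, where 23% of all genes tested rose and 20.8% fell. The rises were small: the changes of the 40 genes ran from -0.41 to 0.44 on the log2 scale, none reached 2-fold, and their median was 0.16 against -0.0049 over all genes. Under 5 ways of scaling the arrays, 22 of the 40 (55%) rose every time, at 1.09-fold to 1.35-fold, where 19.3% of all genes did. Only Kif23 fell in all 5, where 17.3% of all genes did. The 4 TB14 arrays lay wholly above the 4 Trib1 arrays for 27 genes and wholly below for 4, against 29% and 26.9% of all genes tested. The 4 alternative scalings left these counts much the same. With the deposited values 27 rose and 3 fell, against 27% and 21.5% of all genes. Median scaling gave 28 and 1, against 30.2% and 19.1%, cyclic loess 23 and 5, against 22.4% and 25.7%, and a calibration on hybridization control probe sets 25 and 1, against 24.1% and 19.2%. In bulk RNA, a larger share of cells in mitosis and more transcript per cell cannot be told apart.

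TB13 gave no such uniform picture. Of the 40 genes, 10 were called higher and 20 lower than in the Trib1 line, where 42% of all genes tested were called higher and 38.3% lower, and their median log2 change was -0.10 against 0.025 over all genes. All TB13 arrays lay above all Trib1 arrays for 7 genes and below them for 17, against 36.8% and 34.7% of all genes. These calls depended on the scaling. With the deposited values 1 gene was higher and 39 lower, against 29% and 63.6% of all genes. Median scaling gave 1 and 39, against 20.6% and 70.6%. Cyclic loess gave 9 and 20, against 40.7% and 38%. A calibration on the hybridization controls gave 22 and 6, against 73.8% and 11.4%. The median of all genes moved with them, to -0.39 with the deposited values, -0.63 with median scaling, 0.017 with cyclic loess and 0.51 with the calibration. Set against that median, the mitosis genes' own median was lower in TB13 under every scaling, with differences of -0.12 to -0.35 on the log2 scale, and higher in TB14, with differences of 0.15 to 0.23. The median of all genes was not matched to the mitosis genes for intensity. The TB13 arrays had a deposited median of 25.5 to 25.9 units, against 21.1 to 21.4 in Trib1, but the lower upper quartile given above. The part of intensity in the TB13 differences was not tested, so their shared sign is a description only. The same call in all 5 scalings was reached by 7 genes in TB13: Foxm1 rose, and Ccnb2, Cenpa, Birc5, Kif20a, Kif23 and Ube2c fell, where 18.1% of all genes rose and 10.9% fell in all 5. Kif23 lay below the array median on every TB13 array. It was among the tested genes only through the other 8 arrays, so its TB13 call adds no support. Among the 40 genes, for TB13 the words rose and fell are kept for these 7, and the sign of any other TB13 value below is that under quantile scaling, which another scaling may turn. The TB13 and TB14 comparisons share the Trib1 arrays, so values of both lines are set side by side.

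**Figure D1:**
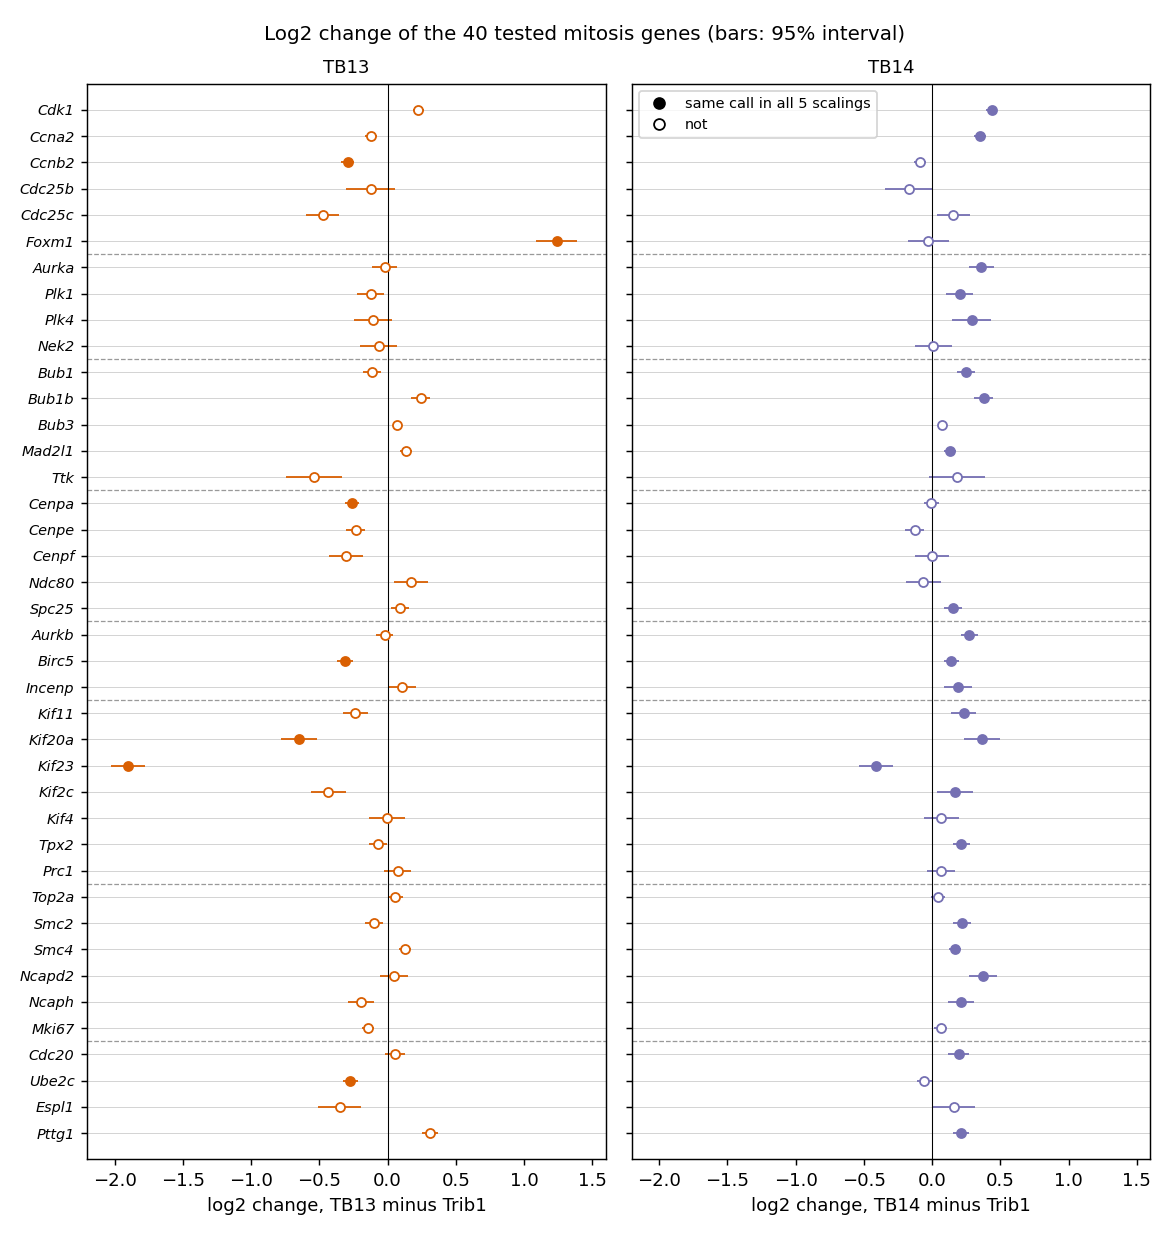
Log2 change of each of the 40 tested mitosis genes in TB13 (left) and TB14 (right) against the Trib1 line, with 95% intervals from limma on 4 arrays per line, grouped by role between dashed lines. Filled points had the same call under all 5 scalings. In TB14 the 22 filled points right of 0 lie at 0.13 to 0.44 and Kif23 at -0.41. In TB13 the points spread from -1.90 (Kif23, below the array median in TB13, so not a measured size) to 1.24 (Foxm1).

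**Figure D2:**
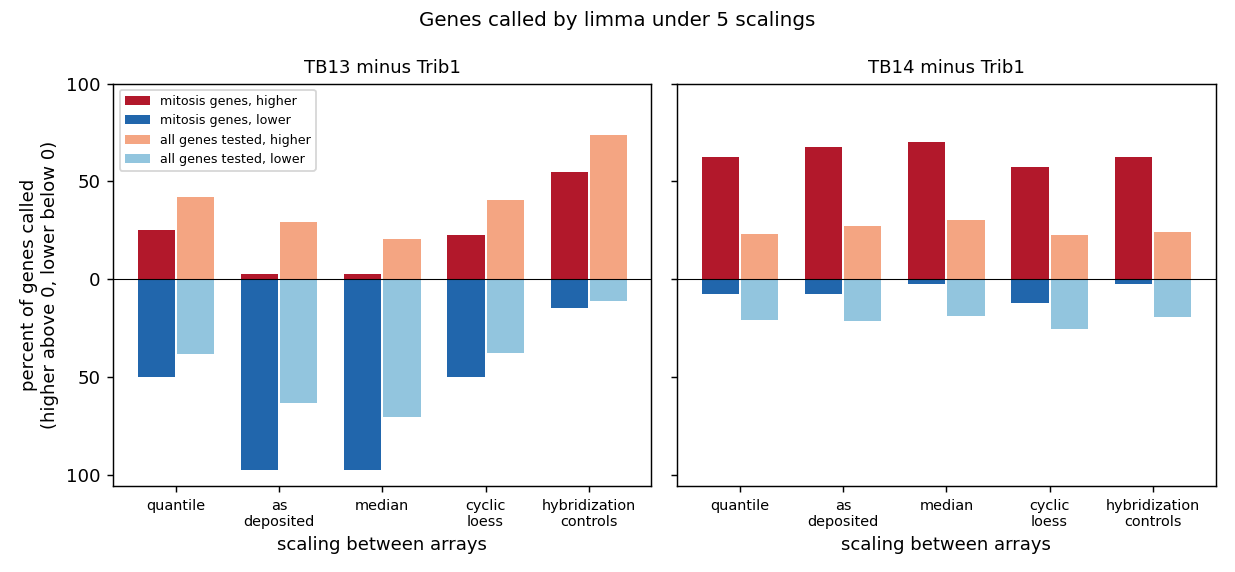
Percent of the mitosis genes and of all genes tested that limma called higher (above 0) or lower (below 0) under 5 scalings, for TB13 (left) and TB14 (right) against the Trib1 line. In TB14 the share of mitosis genes called higher stays between 57.5% and 70%. In TB13 it runs from 2.5% to 55%, and the share of all genes moves with it from 20.6% to 73.8%.

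Among the genes that trigger mitosis, Cdk1 and Ccna2 rose in TB14. Cdk1, the kinase that drives mitotic entry, had a scaled intensity of 811, 853, 831 and 836 on the TB13 arrays and 973, 952, 965 and 967 on the TB14 arrays, against 713, 716, 700.2 and 709.7 on the Trib1 arrays. The 3 lines did not overlap, with TB14 at the top. Its log2 change was 0.44 ± 0.02 in TB14 (SE, n = 4 arrays per line, limma adjusted p = 9.53e-12), or 1.35-fold, and 0.23 ± 0.02 in TB13 (limma adjusted p = 2.06e-08), where the 5 scalings gave -0.56 to 0.35. Ccna2 encodes cyclin A2, a partner of CDK1 and CDK2, and read 802, 799.7, 786 and 792 on the TB13 arrays and 1083, 1124, 1132 and 1095 on the TB14 arrays, against 841, 863, 876 and 877 on the Trib1 arrays. Every TB14 array lay above and every TB13 array below the Trib1 arrays, with log2 changes of 0.35 ± 0.021 in TB14 (limma adjusted p = 2.87e-10) and -0.12 ± 0.021 in TB13. In TB13 the value was negative under all 5 scalings, at -0.90 to -0.00. Another Ccna2 probe set averaged 828 units in TB13 and 888 in TB14, against 762 in Trib1. It gave 0.12 in TB13 and 0.22 in TB14, so the lower TB13 value rests on 1 probe set.

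Ccnb2, which encodes the Golgi-associated cyclin B2, went the other way. Its scaled intensity was 568, 577, 565 and 579 on the TB13 arrays and 654, 657, 663 and 673 on the TB14 arrays, against 693, 723, 698 and 702 on the Trib1 arrays. All 8 Bcl11a-line arrays were below all Trib1 arrays, and TB13 was lowest. Ccnb2 fell by 0.29 on the log2 scale in TB13 (SE 0.021, limma adjusted p = 2.69e-09) and by 0.09 in TB14 (limma adjusted p = 0.00288), and the TB14 call was not kept under all 5 scalings. Cdc25c, whose phosphatase activates CDK1, read 41, 42.2, 39.7 and 36.4 on the TB13 arrays and 70.1, 64, 71.5 and 69.2 on the TB14 arrays, against 59.8, 62.9, 60.9 and 57.8 on the Trib1 arrays. TB14 was above and TB13 below the Trib1 arrays, at log2 0.16 ± 0.058 in TB14 (limma adjusted p = 0.0388) and -0.48 ± 0.058 in TB13, but the TB14 call was not kept under all 5 scalings and the TB13 value ran from -0.70 to 0.68 over them. Cdc25b, another CDC25 phosphatase, passed the test in neither line, at -0.17 ± 0.085 in TB14 and -0.12 ± 0.085 in TB13.

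Foxm1, the forkhead factor that activates many late cell cycle genes, had the largest rise of the 40 in TB13 and did not follow the other genes. It read 141, 173, 135 and 144 on the TB13 arrays and 54.1, 54.2, 54 and 53.9 on the TB14 arrays, against 59.2, 53.2, 54.3 and 54.6 on the Trib1 arrays. The TB13 arrays lay far above the other 8, which overlapped one another. The log2 change was 1.24 ± 0.07 in TB13 (limma adjusted p = 9.15e-11), or 2.36-fold and 0.48 to 1.81 over the scalings, and -0.03 ± 0.07 in TB14 (limma adjusted p = 0.82, 95% interval -0.17 to 0.12). The probe sets of Foxm1 disagreed in TB13. A dimmer one changed by 0.75 in the same direction, and another, at 30.7 ± 3.9 units in TB13, 49.2 ± 3.9 in TB14 and 43.0 ± 1.0 in Trib1 (SD, n = 4), changed by -0.36 in TB13 and 0.15 in TB14. The rise in TB13 was thus seen on 2 of the 3 Foxm1 probe sets above the filter. The name of the dimmer of these 2 carries the maker's mark for probes that can match other transcripts.

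**Figure D3:**
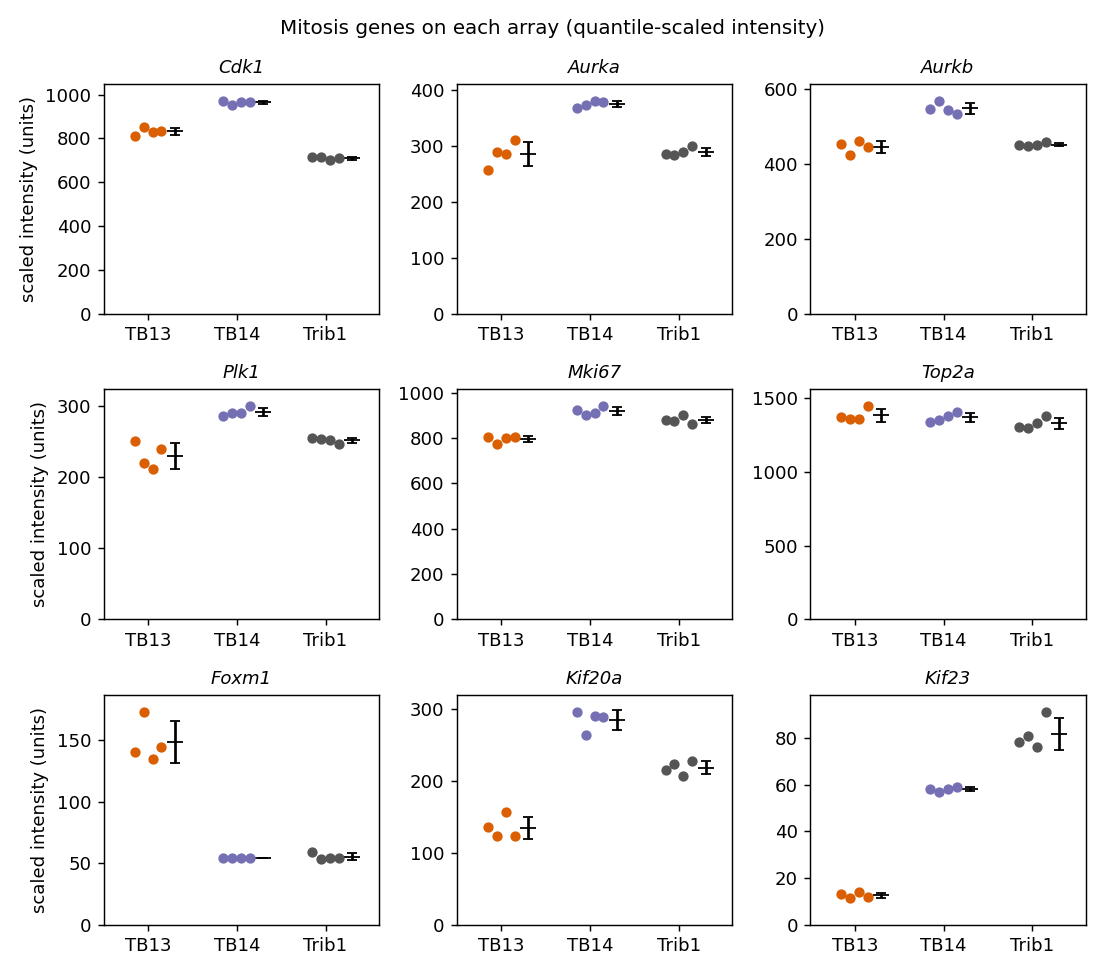
Quantile-scaled intensity (arbitrary units) of 9 mitosis genes on each of the 12 arrays, with TB13 and TB14 to the left of the Trib1 line; points are arrays, and the bar beside them is the mean with 1 SD (n = 4). Cdk1, Aurka, Aurkb, Plk1 and Kif20a are highest in TB14, Mki67 is lowest in TB13, Top2a overlaps in all 3 lines, Foxm1 stands out in TB13, and Kif23 is lowest in TB13 and intermediate in TB14.

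Of the 4 centrosome and spindle kinases, 3 rose in TB14, where 23% of all genes tested rose. Aurka, the Aurora kinase of centrosomes and spindle poles, read 258, 289, 286 and 310.4 on the TB13 arrays and 369, 374, 381 and 378 on the TB14 arrays, against 285, 283, 289.7 and 300.3 on the Trib1 arrays. The TB14 arrays lay above the other 8, while TB13 and Trib1 overlapped. The log2 change was 0.36 ± 0.044 in TB14 (limma adjusted p = 2.86e-06) and -0.02 ± 0.044 in TB13 (limma adjusted p = 0.661, 95% interval -0.11 to 0.07). Plk1, the Polo kinase that acts from mitotic entry to cytokinesis, read 252, 219.9, 212 and 240.0 on the TB13 arrays and 286, 291, 291 and 300.4 on the TB14 arrays, against 255, 254, 253 and 246 on the Trib1 arrays. TB14 was above Trib1 on every array, and TB13 overlapped Trib1 at its upper end. Its changes were 0.20 ± 0.046 in TB14 (limma adjusted p = 0.00156) and -0.12 ± 0.046 in TB13 (limma adjusted p = 0.0212), with TB13 at -1.14 to 0.14 over the scalings. Plk4, the kinase that starts centriole duplication, had a log2 change of 0.29 ± 0.067 in TB14 (limma adjusted p = 0.00182) and -0.11 ± 0.067 in TB13. Nek2, a kinase of centrosome separation, was not called in either line, at 0.01 ± 0.064 in TB14 and -0.06 ± 0.064 in TB13.

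The 5 spindle checkpoint genes all lay higher on the TB14 arrays than on the Trib1 arrays with no overlap, and 4 of them passed the test. Of all genes tested, 29% lay higher with no overlap and 23% were called higher. Bub1b encodes BUBR1, part of the complex that inhibits the anaphase promoting complex, and read 346, 368, 379 and 350.3 on the TB13 arrays and 402, 393, 402 and 390.4 on the TB14 arrays, against 296, 311, 301 and 302 on the Trib1 arrays. Both Bcl11a lines were above Trib1 without overlap, at log2 0.38 ± 0.033 in TB14 (limma adjusted p = 5.09e-08) and 0.24 ± 0.033 in TB13, where another Bub1b probe set gave -0.09. Bub1, the kinetochore kinase of the checkpoint, read 478, 478, 455 and 487 on the TB13 arrays and 610.2, 599.9, 615 and 635 on the TB14 arrays, against 502, 523, 496 and 541 on the Trib1 arrays. TB14 was above and TB13 below Trib1, at 0.25 ± 0.031 (limma adjusted p = 4.13e-06) and -0.12 ± 0.031. Mad2l1 and Bub3, the MAD2 and BUB3 proteins of the same inhibitory complex, rose by smaller amounts in TB14, 0.13 ± 0.022 and 0.07 ± 0.015, and Bub3 kept that call in fewer than the 5 scalings. Ttk, the MPS1 kinase at the top of the checkpoint, varied most: it read 134, 116, 121 and 81.3 on the TB13 arrays and 191, 186, 194 and 199 on the TB14 arrays, against 171, 166, 173 and 163 on the Trib1 arrays. TB13 was below Trib1 on every array and TB14 above, but only the TB13 change of -0.54 ± 0.096 passed the test (limma adjusted p = 7.82e-05), and TB14 stood at 0.18 ± 0.096 (limma adjusted p = 0.143). The calibration on hybridization controls brought the TB13 value of Ttk to 0.01.

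Of the 5 kinetochore and centromere genes, 1 rose, 1 fell and 3 did not pass the test in TB14, near the 23% of all genes that rose and 20.8% that fell. Spc25, a subunit of the NDC80 complex that binds microtubules, read 422, 440.2, 436 and 402 on the TB13 arrays and 455, 447, 442 and 430.4 on the TB14 arrays, against 395, 396, 395 and 408 on the Trib1 arrays. TB14 lay above Trib1 and TB13 overlapped it, with log2 changes of 0.15 ± 0.031 (limma adjusted p = 0.000745) and 0.09 ± 0.031. Its partner Ndc80 was not called in TB14, at -0.06 ± 0.059, and stood at 0.17 ± 0.059 in TB13. Cenpa, the centromeric histone H3 variant, read 754, 813, 811 and 783 on the TB13 arrays and 934, 961, 948 and 944 on the TB14 arrays, against 925, 957, 946 and 973 on the Trib1 arrays. TB14 overlapped Trib1 and TB13 was below it: Cenpa fell in TB13 by 0.26 (SE 0.025, limma adjusted p = 5.54e-08), at -1.03 to -0.15 over the scalings. Cenpf, a large kinetochore protein of late cell cycle, was -0.31 ± 0.059 in TB13 and -0.00 ± 0.059 in TB14. Its other probe sets disagreed, at 0.44 and -0.26 in TB13 and at -0.08 and 0.57 in TB14, so neither reading is settled. Cenpe, a kinetochore kinesin, read 275, 290.1, 292 and 303 on the TB13 arrays and 305, 317, 317 and 312 on the TB14 arrays, against 341, 344, 349 and 336 on the Trib1 arrays. It was called lower in both lines, at -0.13 ± 0.033 in TB14 and -0.23 ± 0.033 in TB13, but its other probe set gave 0.35 in TB14, so the fall in TB14 rests on 1 probe set.

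All 3 genes of the chromosomal passenger complex rose in TB14 under every scaling, where 19.3% of all genes tested did. This complex corrects wrong attachments and later acts in cytokinesis. Aurkb, its kinase, read 452, 422, 459.9 and 444 on the TB13 arrays and 546, 568, 544 and 532 on the TB14 arrays, against 449, 447, 449 and 457 on the Trib1 arrays. TB14 lay above the other 8 arrays, and TB13 and Trib1 overlapped, with log2 changes of 0.27 ± 0.029 in TB14 (limma adjusted p = 7.20e-07) and -0.02 ± 0.029 in TB13 (limma adjusted p = 0.541). The name of this probe set carries the maker's mark for probes that can match other transcripts. Another Aurkb probe set gave 0.22 in TB14 and -0.32 in TB13, so the TB13 value of -0.02 rests on 1 probe set. Birc5 encodes survivin, the subunit that docks the complex on centromeres, and read 694, 706, 671 and 653 on the TB13 arrays and 953, 904, 939.7 and 944 on the TB14 arrays, against 851, 849, 819 and 868 on the Trib1 arrays. The lines were fully separate, TB13 below and TB14 above Trib1. Birc5 fell in TB13 by 0.31 (SE 0.027, limma adjusted p = 2.21e-08) and rose in TB14 by 0.14 (limma adjusted p = 0.000338), and both calls held in all 5 scalings. Incenp, the scaffold of the complex, changed by 0.19 ± 0.049 in TB14 (limma adjusted p = 0.00416) and 0.11 ± 0.049 in TB13. Its other probe set above the filter gave 0.40 in TB14 and -0.33 in TB13.

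Of the 7 kinesin and midzone genes, 4 rose, 1 fell and 2 did not pass the test in TB14. In that line 23% of all genes tested rose and 20.8% fell. Kif20a, the kinesin MKLP2 that brings Aurora B to the central spindle, read 136, 123, 156 and 124 on the TB13 arrays and 296, 264, 290.1 and 288 on the TB14 arrays, against 215, 223, 206 and 227 on the Trib1 arrays. The 3 lines did not overlap. Kif20a fell in TB13 by 0.65 (SE 0.063, limma adjusted p = 8.31e-08) and rose in TB14 by 0.37 (limma adjusted p = 0.000122), under all 5 scalings, and TB14 exceeded TB13 by 1.01 ± 0.063 (limma adjusted p = 3.25e-10). Kif23, the kinesin MKLP1 of the centralspindlin complex, read 13.2, 11.3, 13.9 and 12 on the TB13 arrays and 58.2, 56.9, 58.4 and 59.1 on the TB14 arrays, against 78.5, 81.2, 76.1 and 91.4 on the Trib1 arrays. TB13 was far below and TB14 moderately below Trib1, with no overlap. Kif23 fell by 0.41 in TB14 (limma adjusted p = 1.84e-05). All 4 TB13 arrays lay below the array median of 22.7 units, and the gene passed the filter on low values through the other 8 arrays alone, so it had to be lower in TB13 and the test there adds no support. Taken against the array median, Kif23 was at least 3.6-fold lower in TB13 than in Trib1 (means of 12.6 and 81.8 units) and the fitted change is no measured size. Its other probe set read 19.9 ± 1.1 units in TB13, 21.9 ± 2.2 in TB14 and 20.8 ± 2.0 in Trib1, also below the median.

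Kif11, the motor that pushes spindle poles apart, read 182, 185, 162 and 170.2 on the TB13 arrays and 243, 243, 252 and 248 on the TB14 arrays, against 207, 213, 207 and 205 on the Trib1 arrays. Kif2c, a microtubule depolymerase that corrects attachments, read 129, 109.7, 116 and 141 on the TB13 arrays and 191, 199, 195 and 191 on the TB14 arrays, against 175, 172, 165 and 174 on the Trib1 arrays. For both, TB14 was above and TB13 below Trib1 on every array. Kif11 changed by 0.23 ± 0.043 in TB14 (limma adjusted p = 0.000298) and -0.24 ± 0.043 in TB13, and Kif2c by 0.17 ± 0.061 (limma adjusted p = 0.0331) and -0.44 ± 0.061. The calibration on hybridization controls turned the TB13 sign of both, to 0.11 and 0.07. Tpx2, the spindle assembly factor that activates Aurora A, rose in TB14 by 0.21 ± 0.03 (limma adjusted p = 1.56e-05) and stood at -0.07 ± 0.03 in TB13. Kif4, the chromokinesin, and Prc1, the antiparallel microtubule bundler, were not called in either line, at 0.07 ± 0.061 and 0.06 ± 0.047 in TB14.

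The condensin genes rose in TB14, while the proliferation markers Mki67 and Top2a differed little between TB14 and Trib1. Ncapd2, a condensin I subunit, read 321, 277, 298 and 261 on the TB13 arrays and 360.2, 361, 376 and 364 on the TB14 arrays, against 275, 279, 281 and 281 on the Trib1 arrays. TB14 was above all other arrays, and TB13 overlapped Trib1, with changes of 0.37 ± 0.048 in TB14 (limma adjusted p = 5.01e-06) and 0.05 ± 0.048 in TB13. Smc2, the ATPase core shared by both condensins, read 798, 910.0, 896 and 849.8 on the TB13 arrays and 1066, 1083, 1069.9 and 1087 on the TB14 arrays, against 934, 919, 940.1 and 903 on the Trib1 arrays. TB14 was again above the rest, and TB13 reached down from the Trib1 range, at 0.22 ± 0.032 in TB14 (limma adjusted p = 2.28e-05) and -0.10 ± 0.032 in TB13. Its 3 other probe sets gave larger TB14 changes of 0.69, 0.90 and 1.01. Smc4, the partner ATPase, changed by 0.17 ± 0.021 in TB14 (limma adjusted p = 4.84e-06), and by 0.53 and 0.57 on its other probe sets. Ncaph, the kleisin of condensin I, read 146, 159, 145 and 144 on the TB13 arrays and 193, 201, 201 and 207 on the TB14 arrays, against 173, 171, 178 and 163 on the Trib1 arrays. TB14 was above and TB13 below Trib1, at 0.21 ± 0.046 (limma adjusted p = 0.0011) and -0.19 ± 0.046, and the calibration on hybridization controls turned TB13 to 0.24.

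Mki67, which encodes the Ki-67 antigen that coats mitotic chromosomes, read 805, 774, 803 and 807 on the TB13 arrays and 926, 902, 910.4 and 942 on the TB14 arrays, against 882, 875, 901 and 865 on the Trib1 arrays. TB13 lay below the other 8 arrays, and the TB14 arrays stood just above the Trib1 arrays. Its log2 change was 0.06 ± 0.021 in TB14 (limma adjusted p = 0.025), a call not kept in all 5 scalings, and -0.14 ± 0.021 in TB13 (limma adjusted p = 1.42e-05), at -0.92 to -0.02 over the scalings. Top2a, the topoisomerase that untangles sister chromatids, read 1371, 1361, 1357 and 1447 on the TB13 arrays and 1339, 1349.7, 1383 and 1409 on the TB14 arrays, against 1302, 1299.5, 1334 and 1381 on the Trib1 arrays. All 3 lines overlapped. Its change was 0.04 ± 0.025 in TB14 (limma adjusted p = 0.184, 95% interval -0.01 to 0.10), which lies below the rises of Cdk1 and Ncapd2. In TB13 it stood at 0.06 ± 0.025 (limma adjusted p = 0.0422), at -0.51 to 0.17 over the scalings. Another, dimmer Top2a probe set gave -0.65 in TB13 and 0.04 in TB14, so the TB13 direction is not settled.

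Of the 4 genes of the exit from mitosis, 2 rose and 2 did not pass the test in TB14, where 23% of all genes tested rose. Pttg1 encodes securin, which restrains separase, and read 883, 834, 877 and 864 on the TB13 arrays and 799, 795, 826 and 803 on the TB14 arrays, against 708, 692, 718 and 657 on the Trib1 arrays. Both Bcl11a lines were above Trib1, at 0.21 ± 0.027 in TB14 (limma adjusted p = 5.74e-06) and 0.31 ± 0.027 in TB13, but its other probe set gave 0.22 and -0.43. Cdc20, the activator of the anaphase promoting complex, changed by 0.19 ± 0.035 in TB14 (limma adjusted p = 0.000196) and 0.05 ± 0.035 in TB13. Ube2c, the ubiquitin-conjugating enzyme of that complex, read 1202, 1119, 1236 and 1229 on the TB13 arrays and 1378, 1381, 1412 and 1391 on the TB14 arrays, against 1447, 1409.9, 1469 and 1459 on the Trib1 arrays. TB13 was below the rest and TB14 overlapped Trib1: Ube2c fell in TB13 by 0.27 (limma adjusted p = 6.52e-08), and its TB14 change of -0.06 ± 0.026 did not pass the test (limma adjusted p = 0.0953). Espl1, which encodes separase, read 166, 141, 150.3 and 118 on the TB13 arrays and 190.2, 221, 211 and 214 on the TB14 arrays, against 183, 190.2, 183 and 187 on the Trib1 arrays. TB13 was below Trib1 on every array, and the lowest TB14 array lay just above the highest Trib1 array. It stood at -0.35 ± 0.074 in TB13 (limma adjusted p = 0.000413) and at 0.16 ± 0.074 in TB14 (limma adjusted p = 0.0997).

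Probe sets that had not been used for the gene values gave another reading of the same RNA. There were 24 of them above the filter, for 19 of the genes. Their calls came from a separate fit over all 28898 probe sets with 1 gene. The share of those that were called is not given here, so the counts below are a description only. In TB14, 15 rose, 0 fell and 9 did not pass the test (limma), with a median log2 change of 0.22 and a highest of 1.01. In TB13, 4 were called higher, 13 lower and 7 neither, with a median of -0.21, and 11 of the 24 differed in sign from the probe set used. In TB14 that was so for 5. Larger changes on dimmer probe sets were seen for Smc2, Smc4 and Kif11 in TB14, and for Plk4 in TB13, at -1.06 against -0.11.

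**Figure D4:**
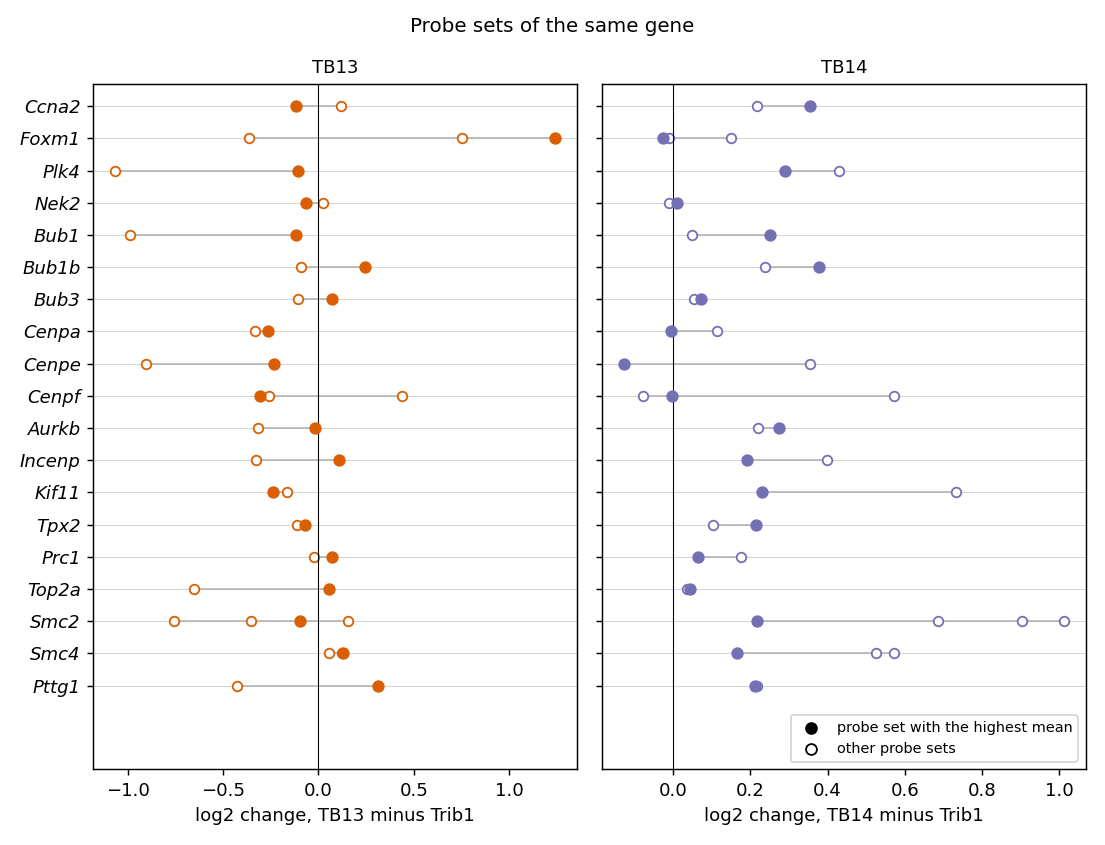
Log2 change of every probe set above the filter for the 19 mitosis genes with more than 1, in TB13 (left) and TB14 (right) against the Trib1 line. Filled points are the probe sets used for the gene values and open points the others. In TB14 nearly all points lie right of 0, up to 1.01 for Smc2, while in TB13 the probe sets of a gene often straddle 0.

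TB14 and TB13 differed directly for most of the 40 genes: 27 were higher and 3 lower in TB14, where 39% and 41.1% of all genes tested were called. The median difference was 0.24, against -0.0080 over all genes, and the arrays did not overlap for 26 higher and 2 lower genes, against 35.3% and 36.8%. With the deposited values 39 were higher and 1 lower, against 63.4% and 29.4% of all genes, and with median scaling 39 and 1, against 71% and 20.5%. Cyclic loess gave 27 and 8, against 36.6% and 41.4%, and the calibration 18 and 10, against 13.1% and 71.2%. After all 5 scalings, 18 remained higher in TB14 each time, where 12.3% of all genes did, and Foxm1 alone was lower each time, where 17.9% did. Kif23 was at least 2.57-fold higher in TB14 than in TB13, where it lay below the array median. It had passed the filter through the other lines alone, so its TB13 calls add no support to the counts here. Among genes above the median in both lines, the largest differences were those of Foxm1 (-1.26 ± 0.07), Kif20a (1.01 ± 0.063), Ttk (0.72 ± 0.096) and Cdc25c (0.63 ± 0.058), and that of Cdc25c turned with the calibration on hybridization controls. The other Foxm1 probe sets above the filter gave -0.76 and 0.51, so the probe sets of Foxm1 disagreed in direction here too. Called lower in TB13 and higher in TB14 were 12 of the 40, against 7.9% of all genes: Ccna2, Cdc25c, Plk1, Bub1, Birc5, Kif11, Kif20a, Kif2c, Tpx2, Smc2, Ncaph and Mki67. Of these only Birc5 and Kif20a kept both calls in all 5 scalings. Another Ccna2 probe set was called higher in TB13, at 0.12. Another 7 were called higher in both lines (Cdk1, Bub1b, Bub3, Mad2l1, Spc25, Smc4 and Pttg1), against 9.86% of all genes, and 3 lower in both (Ccnb2, Cenpe and Kif23), against 14.3%. Called higher in TB13 and lower in TB14 were 0, against 3.67%.

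Averaged over both Bcl11a lines, as the series compares them, the signal was weak. Of the 40 genes, 17 were called higher and 10 lower than in Trib1, where 38.6% and 31.6% of all genes tested were called, and the median log2 change was 0.052 against 0.033. The deposited values gave 2 higher and 35 lower, against 28.3% and 55.9% of all genes, median scaling 1 and 39, against 18.1% and 64.1%, cyclic loess 15 and 9, against 36% and 32.9%, and the calibration 30 and 3, against 70.5% and 12.8%. Under all 5 scalings 1 gene was higher and 3 were lower, against 16% and 12.5%. All 8 Bcl11a-line arrays lay above all 4 Trib1 arrays for 6 genes (Cdk1, Bub1b, Bub3, Mad2l1, Smc4 and Pttg1) and below them for 3 (Ccnb2, Cenpe and Kif23), against 10.2% and 15.5% of all genes. The TB13 values of all 6 turned negative with the deposited values and with median scaling. Kif23 had passed the filter through the other lines alone, so its TB13 arrays add no support.

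Other mitosis genes, from lists of cohesin, condensin, anaphase promoting complex, kinetochore, kinesin, centrosome, entry and cytokinesis genes, showed a like balance in TB14. Of 127 listed, 115 were tested, and in TB14 56 rose, 9 fell and 50 did not pass the test, where 23% of all genes rose and 20.8% fell, with a median of 0.12. In all 5 scalings 49 (42.6%) rose and 7 (6.09%) fell, against 19.3% and 17.3% of all genes. In TB13, 35 were called higher (30.4%) and 53 lower (46.1%), against 42% and 38.3% of all genes. This balance turned with the scaling. The deposited values gave 5 and 108, against 29% and 63.6% of all genes, and the calibration 77 and 7, against 73.8% and 11.4%. Mybl2, the B-MYB factor of late cell cycle promoters, averaged 211 ± 15.7 units in TB13 and 210.4 ± 6.98 units in TB14, against 144 ± 6.38 units in Trib1 (SD, n = 4), a log2 change of 0.52 ± 0.053 in TB14 (limma adjusted p = 3.65e-07). Wee1, the kinase that inhibits CDK1, averaged 457 ± 14.3 units in TB13 and 453 ± 6.74 units in TB14, against 329 ± 13.9 units in Trib1, at 0.44 ± 0.033 in TB14 (limma adjusted p = 6.10e-09). Over the 5 scalings the TB13 change ran from -0.46 to 0.86 for Mybl2 and from -0.52 to 0.62 for Wee1, so neither TB13 direction is settled. Haus8, a subunit of the augmin complex of spindle microtubules, averaged 121 ± 1.78 units in TB13 and 127 ± 2.93 units in TB14, against 223 ± 6.87 units in Trib1 and fell in TB14 by 0.76 (limma adjusted p = 2.25e-10). Among these lists the anaphase promoting complex had 10 of 13 genes higher and 0 lower in TB14, and the centrosome and spindle list 7 higher and 4 lower of 27, near the 23% and 20.8% of all genes.

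Several other late cell cycle genes had large values in TB13 and small ones in TB14. Lin9 and Lin54, subunits of the MuvB complex that DREAM and B-MYB share, stood at -1.04 ± 0.063 and -0.68 ± 0.073 in TB13 and 0.03 ± 0.063 and -0.01 ± 0.073 in TB14. Pkmyt1, a membrane-bound inhibitory kinase of CDK1, stood at 1.03 ± 0.083 in TB13 and -0.03 ± 0.083 in TB14. The kinetochore genes Pmf1 and Cenpp stood at 1.18 ± 0.062 and -1.25 ± 0.076 in TB13 and at 0.10 ± 0.062 and 0.02 ± 0.076 in TB14. These TB13 values are those under quantile scaling. Lin54, Pmf1 and Cenpp kept their TB13 call in all 5 scalings, and Lin9 and Pkmyt1 did not.

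The genes of DNA replication were also higher in TB14: 28 of 32 rose and 1 fell, where 23% of all genes rose and 20.8% fell, with a median log2 change of 0.29. In all 5 scalings 26 rose, against 19.3% of all genes. In TB13 16 were called higher and 7 lower, against 42% and 38.3% of all genes. The deposited values gave 1 and 30, against 29% and 63.6%. Higher in TB13 in all 5 scalings were 0, against 18.1% of all genes. Mcm3, a subunit of the replicative helicase, averaged 826 ± 13.2 units in TB13 and 1026 ± 26.2 units in TB14, against 648 ± 9.8 units in Trib1 (SD, n = 4), and changed by 0.65 ± 0.022 in TB14 (limma adjusted p = 2.21e-13). In TB13 the change of Mcm3 ran from -0.46 to 0.47 over the scalings. Tk1, thymidine kinase, changed by 0.66 ± 0.043 in TB14 and Gins2, of the same helicase, by 0.59 ± 0.038. Of 9 CDK inhibitor and pocket protein genes tested, 4 rose and 3 fell in TB14, against 23% and 20.8% of all genes. Cdkn2a, whose products inhibit CDK4 and CDK6 and stabilise p53, averaged 74 ± 13.1 units in TB13 and 209 ± 11.9 units in TB14, against 651 ± 22.6 units in Trib1, and fell by 1.58 in TB14 (limma adjusted p = 9.71e-11). In TB13 it stood at -2.95 (limma adjusted p = 2.80e-14) and was called lower in all 5 scalings. Cdkn1a, which encodes the CDK inhibitor p21, rose in TB14 by 0.36 ± 0.027 (limma adjusted p = 7.08e-09).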

How the data were processed

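Total RNA of 12 samples was labelled with biotin and hybridised to 1 array each, per the labels' protocols. The authors deposited linear intensities, for which the submitters' processing notes name MAS5. Neither version nor scaling target is stated there. Under the platform annotation 28898 probe sets had 1 gene, 551 several and 15588 none, and 0 symbols changed on updating.

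In R 4.3.3 with limma 3.58.1 the intensities of all probe sets except 104 controls were quantile-scaled and taken to log2(value + 12.7), 12.7 being the 25th percentile of the deposited values. Tested genes exceeded the median of the array on 4 or more of 12 arrays. All arrays entered 1 model with a term per line and a variance trend. The values as deposited, median scaling, cyclic loess and a calibration on 18 hybridization controls were the other 4 of 5 scalings. Further alternatives were pseudocounts of 1 and 32, other filters, no trend, the mean over a gene's probe sets, fits of 2 lines, a replicate block and leaving out each array. Arrays with the same number did not pair: their deviations correlated at -0.0912 to 0.0992.

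Precision is limited by the number of arrays, which have no read depth. Within a line the arrays correlated at 0.9946 or more, no columns were identical, and the median SD of a gene was 0.075 on the log2 scale. In simulated data for TB14 minus Trib1 over 11217 genes, 62% of 1.2-fold, 96% of 1.5-fold and 100% of 2-fold changes were called, 50 genes each. Far fewer genes changed there than were called in the data, where 23% rose and 20.8% fell. The adjustment was thus stricter in the simulation, and its shares may be too low for the data.

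The members, the other lists and the tests were chosen with earlier results of these data known. All members may be named; genes of other lists were the largest called rises and falls of a list by the mean of both lines. Figures were drawn with matplotlib 3.10.9.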

Additional observations from a re-analysis of the deposited data

Results flagged for a closer look

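In 6 of the 120 sets of 4 arrays examined (40 genes in 3 lines), 1 array lay far from the other 3 by Dixon's criterion; chance alone gives about 1 in 20 such sets. Array 4 of TB13 read 1446.5 units for Top2a, against 1357.2 to 1370.8 on the other 3. Array 2 of TB13 read 158.88 for Ncaph, against 143.87 to 146.1, and 774.32 for Mki67, against 802.65 to 806.57. Array 4 of the Trib1 line was high for 3 genes: it read 407.78 for Spc25 against 394.99 to 395.76, 457.39 for Aurkb against 447.41 to 449.04, and 409.32 for Tpx2 against 388.45 to 390.34.

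The change against Trib1 differed between the Bcl11a lines for 30 of the 40 genes, tested as TB14 minus TB13 in limma with all-gene adjustment. The log2 difference was positive, that is higher in TB14, at 0.21 for Cdk1, 0.47 for Ccna2, 0.20 for Ccnb2, 0.63 for Cdc25c, 0.38 for Aurka, 0.33 for Plk1, 0.40 for Plk4, 0.37 for Bub1, 0.13 for Bub1b, 0.72 for Ttk, 0.26 for Cenpa, 0.11 for Cenpe, 0.30 for Cenpf and 0.29 for Aurkb. It was also positive at 0.45 for Birc5, 0.47 for Kif11, 1.01 for Kif20a, 1.49 for Kif23, 0.60 for Kif2c, 0.28 for Tpx2, 0.32 for Smc2, 0.33 for Ncapd2, 0.41 for Ncaph, 0.20 for Mki67, 0.14 for Cdc20, 0.22 for Ube2c and 0.51 for Espl1. It was negative at -1.26 for Foxm1, -0.24 for Ndc80 and -0.10 for Pttg1. The value of Kif23 is no measured size, because all its TB13 arrays lay below the array median. Under all 5 scalings 18 stayed higher and Foxm1 stayed lower in TB14.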

How the results depend on the processing

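The rise of the mitosis genes in TB14 kept its direction under every alternative run: their median log2 change was 0.21 with median scaling and 0.20 with the calibration on hybridization controls, and the count of rises stayed within 1.5 times of 25 in all of them. The few falls in TB14 numbered 1 with median scaling, 5 with cyclic loess, 1 with the calibration and 5 with only the lines compared in the fit. With the deposited values, TB13 had 1 gene higher and 39 lower (median -0.71), both lines together 2 and 35 (median -0.29), and TB14 minus TB13 had 1 lower (median 0.85). With median scaling, TB13 had 1 and 39 (median -0.95), both lines 1 and 39 (median -0.40), and TB14 minus TB13 had 1 lower (median 1.13). Cyclic loess gave 8 lower in TB14 minus TB13 (median 0.20). The calibration gave 22 and 6 in TB13 (median 0.15), 30 and 3 for both lines (median 0.19), and 10 lower in TB14 minus TB13 (median 0.11). Averaging the probe sets of a gene gave 6 higher in TB13 and a median of 0.27 in TB14 minus TB13. The cause of these shifts was not tested.

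Genes called under quantile scaling changed sign as follows, each as a log2 change. In TB13 against Trib1, the deposited values gave Cdk1 -0.30, Bub1b -0.52, Bub3 -0.22, Mad2l1 -0.30, Ndc80 -0.57, Spc25 -0.64, Top2a -0.25, Smc4 -0.25 and Pttg1 -0.20; median scaling gave Cdk1 -0.56, Bub1b -0.77, Bub3 -0.48, Mad2l1 -0.56, Ndc80 -0.81, Spc25 -0.89, Top2a -0.51, Smc4 -0.51 and Pttg1 -0.46; the calibration gave Cdc25c 0.68, Plk1 0.14, Bub1 0.0161, Ttk 0.0105, Cenpf 0.10, Kif11 0.11, Kif2c 0.0669, Tpx2 0.0908, Smc2 0.0206, Ncaph 0.24 and Espl1 0.0858; and averaged probe sets gave Bub3 -0.0259, Top2a -0.20 and Pttg1 -0.0499. In TB14 minus TB13, the deposited values gave Ndc80 0.52 and Pttg1 0.41, median scaling Ndc80 0.79 and Pttg1 0.70, the calibration Cdc25c -0.52, Cenpe -0.0654 and Cenpf -0.0864, and averaged probe sets Pttg1 0.17. In TB14 against Trib1, averaged probe sets gave Cenpe 0.11. For both lines together, 14 called genes changed sign with the deposited values, 16 with median scaling, 4 with the calibration and 3 with averaged probe sets. Genes without a call turned in at least 1 of the other 4 scalings too: 10 in TB13, 4 in TB14, 13 for both lines and 10 in TB14 minus TB13.

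Leaving out each array in turn gave 9 to 12 higher and 18 to 20 lower in TB13 (median -0.10 to -0.078), 22 to 27 and 3 to 5 in TB14 (median 0.15 to 0.17), 14 to 18 and 8 to 12 for both lines (median 0.034 to 0.065), and 27 to 29 and 3 to 4 in TB14 minus TB13 (median 0.22 to 0.24). The 5 falls in TB14 came without array 2 of TB13. With the replicate number as a block, the counts were 11 and 19 in TB13, 24 and 4 in TB14, 17 and 10 for both lines, and 27 and 3 in TB14 minus TB13; the numbers did not pair the arrays, and 4 of 12 arrays correlated best with their own number. Signal near background limits Kif23 in TB13. Some rises under 1.2-fold passed the test in TB14, such as Bub3 at 1.05-fold, and others did not, such as Ttk at 1.14-fold.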
